A study of Homo sapiens with 12 samples.

Results

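The histone genes of K562 cells were followed across cells in which the level of CXXC5 had been raised or lowered. Members were the genes with a probe set of their own whose current symbol begins with H1-, H2AC, H2BC, H3C or H4C, together with the variant genes H2AX, H2AZ1, H3-3A, H3-3B and MACROH2A1. This gave 46 of the 11963 genes measured. Of these, 41 were clustered histone genes, with 6 of linker histone H1, 8 of H2A, 12 of H2B, 7 of H3 and 8 of H4. H2BC12L counts among them by its symbol, although no other histone gene lies at its locus in the annotation used. The other 5 were variant genes, namely H1-10, H2AX, H2AZ1, H3-3A and MACROH2A1. H3-3B was on the array only through probe sets paired with several genes and had no value of its own.

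K562 is an established human erythroleukaemia cell line. All 12 samples, controls included, received recombinant Wnt3a (100 ng/ml, without serum) and were harvested for RNA after 8 h, so the response to Wnt3a itself was not measured. There were 4 groups of 3 arrays each. The empty vector group received pEGFP-C2 and the CXXC5 overexpression group received pEGFP-CXXC5, both by transient nucleofection. The scrambled shRNA group and the CXXC5 knockdown group carried their shRNA stably after lentiviral infection. The knockdown group was made with a pair of shRNA clones, and which sample carried which is not stated in the labels. Nothing in the labels says that replicates were separate cultures, so the spread behind each p-value may be technical. CXXC5 itself had no probe set here, so its level was not analysed and the group labels could not be checked against it.

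Histones are the proteins around which DNA is wound. The clustered genes supply the bulk of them while DNA is copied in S phase, and most of their mRNAs end in a stem-loop instead of a poly(A) tail. Most variant genes lie outside this programme, are transcribed through the cell cycle and give polyadenylated mRNAs, whereas H2AX gives both a stem-loop and a polyadenylated mRNA. The labelling used for 3' expression arrays starts from poly(A) tails. CXXC5 is a CXXC zinc finger protein that binds CpG-containing DNA and is known as an inhibitor of Wnt signalling.

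Promoter sequences were taken from RefSeq (GRCh38.p14) for 43 of the 46 members, each window running from 250 bases before to 50 after the start of the gene. Windows were searched on both strands for 3 motifs: the CCAAT box, the octamer with the letters ATTTGCAT, and a TATA box with the letters TATAAA, whose matches on both strands can overlap. CCAAT was found in 33 of 38 clustered promoters (86.8%), in 3 of 5 variant promoters and in 35.7% of all 27303 promoters of the same length. The H4 genes differed within the clustered set, with CCAAT in 2 of 7 against all 31 of the other clustered promoters. The octamer was found in 6 of 8 H2A and 8 of 11 H2B promoters, in none of the H1, H3, H4 or variant promoters, and in 1.8% of all promoters. TATAAA was found in 65.8% of clustered promoters, in 3 of 5 variant promoters and in 12% of all. The median number of CpG dinucleotides was 11 in clustered promoters, 28 in the 5 variant promoters and 14 over all promoters. A match is a description of the letters in the window and not evidence of a bound factor.

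The 250 bases before the start are shown for the clustered genes that differed in the knockdown cells from either control, H2AC25, H2BC11, H2BC21 and H2BC5, and for MACROH2A1, the variant gene that differed between the control groups. They are written 5′ to 3′ on the strand of the gene, and capitals mark the 3 motifs on either strand. H2AC25 lies at chr1:228457874-228458123 (minus strand), H2BC11 at chr6:27132796-27133045 (minus), H2BC21 at chr1:149886683-149886932 (minus), H2BC5 at chr6:26157871-26158120 (plus) and MACROH2A1 at chr5:135399232-135399481 (minus).
H2AC25: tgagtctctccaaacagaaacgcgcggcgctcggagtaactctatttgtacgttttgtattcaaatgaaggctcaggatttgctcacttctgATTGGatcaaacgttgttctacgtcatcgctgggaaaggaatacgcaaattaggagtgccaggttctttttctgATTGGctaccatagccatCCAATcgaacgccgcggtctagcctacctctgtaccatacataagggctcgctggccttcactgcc
H2BC11: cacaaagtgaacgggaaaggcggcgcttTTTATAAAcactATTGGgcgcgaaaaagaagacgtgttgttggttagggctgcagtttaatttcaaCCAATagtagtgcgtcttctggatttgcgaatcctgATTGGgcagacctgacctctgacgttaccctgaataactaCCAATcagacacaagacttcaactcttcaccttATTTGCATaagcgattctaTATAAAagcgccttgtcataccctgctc
H2BC21: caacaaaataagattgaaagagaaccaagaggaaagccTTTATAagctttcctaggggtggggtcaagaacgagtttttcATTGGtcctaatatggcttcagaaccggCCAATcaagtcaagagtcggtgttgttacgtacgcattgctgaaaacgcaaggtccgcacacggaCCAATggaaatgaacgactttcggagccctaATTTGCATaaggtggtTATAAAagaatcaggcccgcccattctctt
H2BC5: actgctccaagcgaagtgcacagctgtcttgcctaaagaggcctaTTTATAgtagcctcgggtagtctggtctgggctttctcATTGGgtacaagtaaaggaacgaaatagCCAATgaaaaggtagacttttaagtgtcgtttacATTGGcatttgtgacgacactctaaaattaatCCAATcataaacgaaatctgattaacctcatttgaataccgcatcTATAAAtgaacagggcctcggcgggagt
MACROH2A1: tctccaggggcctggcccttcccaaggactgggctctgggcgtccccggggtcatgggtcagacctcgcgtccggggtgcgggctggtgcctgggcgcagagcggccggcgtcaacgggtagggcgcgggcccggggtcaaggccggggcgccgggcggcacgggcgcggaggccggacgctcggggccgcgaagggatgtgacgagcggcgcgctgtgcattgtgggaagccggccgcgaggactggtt
H2AC25 had 3 CCAAT matches, no octamer and no TATAAA match. H2BC11 had 4 CCAAT matches and 1 octamer, and H2BC21 had 3 and 1. H2BC5 had 4 CCAAT matches and no octamer. MACROH2A1 had none of the 3 motifs and 33 CpG dinucleotides, against 15, 11, 11 and 9 in the 4 clustered genes in the order shown.

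Values are the deposited log2 expression values, which lay between 2.07 and 14.4 over all probe sets. Where a gene had several probe sets, the one with the highest mean was used. Probe sets respond differently to the same amount of RNA, so a difference in level was read only within a probe set, and a position on the scale describes the probe set and not the amount of mRNA. Clustered members had means over the 12 arrays from 3.84 (H2AC15) to 13.8 (H2BC12), and variant members from 8.24 (H3-3A) to 13.5 (H2AZ1). Of the 46 probe sets, 12 lay in the bottom tercile of all genes by mean value, 18 in the middle one and 16 in the top one. The residual SD between replicates had a median of 0.119 in clustered and 0.0812 in variant genes, against 0.111 over all genes. Clustered genes are near copies of each other, and 7 of the 46 probe sets carry the _x_at suffix and 9 the _s_at suffix, which mark probes that can match other transcripts, so their assignment to a single gene is uncertain.

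**Figure D1:**
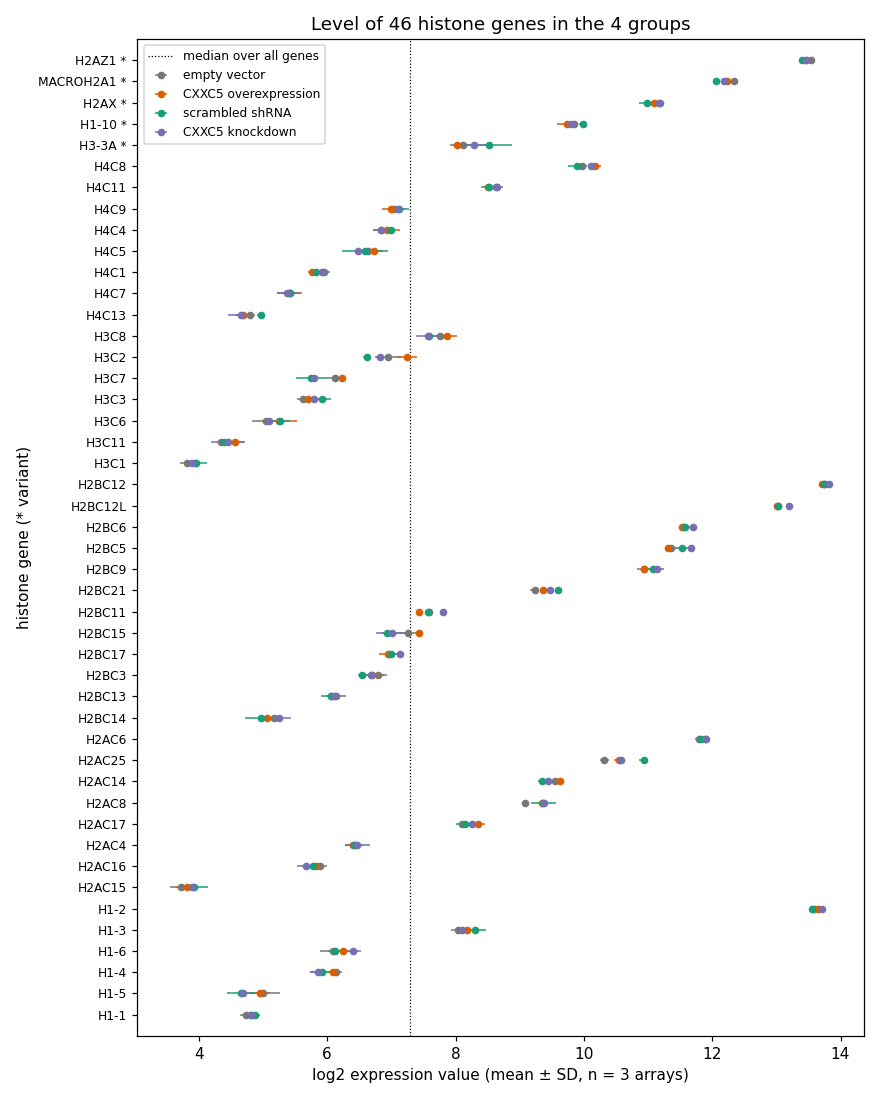
Log2 expression value of the 46 histone genes in the 4 groups, as mean ± SD over 3 arrays, with variant genes marked by an asterisk and the median over all genes as a dotted line. The group means of a gene lay within 0.5 of each other for 43 of 46 genes, while values ran from below 4 to above 13; positions of different probe sets are not comparable amounts of RNA.

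The cell line labels were checked against marker genes. All 10 measured genes of a 14-gene erythroid list had means above the median of all genes, among them HBZ at 12.4 and GATA1 at 10.4, and ran from 8.00 to 13.4. Lists for other cell types were also read. Of 7 measured lymphoid genes 2 lay above that median, CD3D at 10.9 and PTPRC at 10.3, and the whole list ran from 4.52 to 10.9. Of 6 fibroblast genes 1 did, COL1A1 at 7.90, and the list started at 2.59. Of 5 epithelial genes 2 did, EPCAM at 11.2 and KRT19 at 10.96, and the list started at 3.69. The part of other cell types in the results was not tested. One array stood apart. In scrambled shRNA replicate 3 the GAPDH control gave 0.87 log2 more signal at its 3' than at its 5' end, against 0.227 to 0.335 in the other 11 arrays, and ACTB gave 2.57 against 1.95 to 2.27. The counts of histone genes that rest on the scrambled shRNA group, and most of the calls, are therefore also given without this array.

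Overexpression of CXXC5 changed none of the histone genes past the threshold. Of the 46 genes, 0 passed a limma adjusted p of 0.05 (Benjamini-Hochberg over all 11963 genes), where 6.98% of all genes passed, 3.61% higher and 3.37% lower. At an unadjusted p under 0.05 there were 8 of 46, and 2442 of all 11963 genes, which is a larger share. The median change was 0.07 in clustered and −0.10 in variant genes, and 0.00 (0.00133) over all genes. The clustered median was 0.0226 without empty vector replicate 1 and 0.00533 without overexpression replicate 3. The 95% interval of the change lay within 1.5-fold in either direction for all 46 genes, and for 94.6% of all genes. The 3 arrays of one group lay entirely to one side of the other for 13 histone genes (28.3%), which is close to the 27.9% of all genes.

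The H2A gene H2AC25 came nearest to the threshold. Its values were 10.40, 10.26 and 10.30 in the empty vector arrays and 10.63, 10.47 and 10.56 in the overexpression arrays. The groups did not overlap, and the change was 0.23 (SE 0.0637, limma adjusted p = 0.05005). It passed in 7 of 22 alternative fits. Without scrambled shRNA replicate 3 the same contrast passed for 3 histone genes, H2AC17, H2AC25 and H2AC8, where 8.86% of all genes passed. H2BC11, an H2B gene, had 7.58, 7.57 and 7.60 with the empty vector and 7.43, 7.39 and 7.46 with CXXC5, a change of −0.15 (SE 0.0515, adjusted p = 0.1005). These groups also did not overlap.

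The families differed in sign without any gene passing. All 7 H3 genes had positive changes in the overexpressing cells, with a median of 0.13, led by H3C2 at 0.30 (SE 0.102, adjusted p = 0.1108). In contrast 9 of 12 H2B genes had negative changes, with a median of −0.03. H2A genes had a median of 0.09 and H4 genes of −0.02. Among the linker genes, whose products bind the DNA between nucleosomes, the 6 clustered H1 changes ran from −0.04 (H1-5) to 0.17 (H1-6). All 5 variant genes had negative changes, between −0.08 and −0.11, and 3 of them had groups that did not overlap. The change of H3-3A ran from −0.18 to 0.03 when single arrays were left out, so its sign was not kept. Of all genes, 50.5% had positive changes. By mean value this share was 61.2% in the bottom tercile of all genes and 40.5% in the top tercile. None of these sign counts carries a test.

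**Figure D2:**
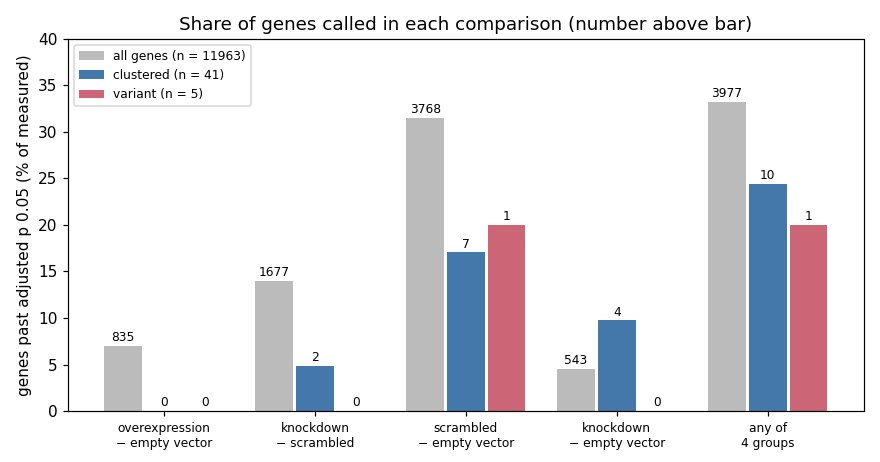
Percentage of all genes, of the 41 clustered and of the 5 variant histone genes past a limma adjusted p of 0.05 in each comparison and in the test over all 4 groups, with the number of genes above each bar. No histone gene passed in the overexpression comparison and 2 clustered genes passed in the knockdown comparison.

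Knockdown of CXXC5 changed 2 histone genes, in opposite directions. Against the scrambled shRNA, H2AC25 fell and H2BC11 rose, so 2 of 46 passed (4.35%) where 14.0% of all genes did, 8.79% higher and 5.22% lower. Unadjusted, 12 of 46 had a p under 0.05, and so did 3363 of all 11963 genes, which is a larger share. The median change was 0.06 in clustered and 0.07 in variant genes, against −0.01 over all genes. The 95% interval stayed within 1.5-fold for 45 of 46 genes, H3-3A being the exception, and for 91.7% of all genes. Groups did not overlap for 34.8% of the histone genes and 32.4% of all genes.

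H2AC25 was 10.87, 10.92 and 11.01 in the scrambled shRNA arrays and 10.60, 10.57 and 10.57 in the knockdown arrays. The change was −0.36 (SE 0.0637, adjusted p = 0.003069), 1.28-fold lower. Every knockdown array lay below every scrambled array, and also above the highest empty vector array, at 10.40. H2BC11 was 7.53, 7.55 and 7.62 with the scrambled shRNA and 7.80, 7.82 and 7.79 with the CXXC5 shRNA, a change of 0.24 (SE 0.0515, adjusted p = 0.009671), 1.18-fold higher. Its scrambled and empty vector values overlapped, and the 3 knockdown arrays were the highest of all 12. The H2BC11 call was lost after quantile normalization and in a fit on the 6 arrays of both groups alone. Both genes were called in each fit that left out 1 array. Without scrambled shRNA replicate 3, 6 histone genes passed (13.0%), where 12.3% of all genes passed. They were H2AC25 at −0.32 (adjusted p = 0.009699), H2BC11 at 0.26 (adjusted p = 0.006083), and H1-2, H2AX, H2BC12L and H2BC14, all 4 higher.

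Most H2B genes had a positive value in the knockdown. Of the 12 H2B genes, 11 had a positive change against the scrambled shRNA, with a median of 0.13, and H2BC11 alone passed. The exception was H2BC21, at −0.12. Positive changes were counted for 3 of 6 H1, 5 of 8 H2A, 3 of 7 H3 and 3 of 8 H4 genes, for 47.8% of all genes and for 59.3% of the top tercile of all genes by mean value. These sign counts carry no test. H2BC12L had values of 13.01, 13.01 and 13.08 in scrambled and 13.16, 13.24 and 13.18 in knockdown arrays, a change of 0.16 (adjusted p = 0.06664). Without scrambled shRNA replicate 3 it passed, at 0.18 (adjusted p = 0.04482), and so did H2BC14, which went from 0.28 (adjusted p = 0.1688) to 0.42 (adjusted p = 0.03827). In that fit 11 of 12 H2B genes were again positive and 3 passed. H2BC12 changed by 0.08 (SE 0.0512, adjusted p = 0.3193). Several H2B probe sets carry shared probes, so these genes are not independent readings.

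The linker and variant genes gave small values in the knockdown. H1-2, the linker gene whose probe set had the highest value, read 13.55, 13.53 and 13.60 with the scrambled shRNA and 13.69, 13.71 and 13.72 with the CXXC5 shRNA. That change was 0.15 (SE 0.0493, adjusted p = 0.06651), and the groups did not overlap. Leaving out scrambled shRNA replicate 3 gave 0.17 and a call (adjusted p = 0.04032). H1-6, the testis type of linker histone, changed by 0.28 (SE 0.105, adjusted p = 0.09808) and H1-3 by −0.20 (SE 0.0966, adjusted p = 0.1967). H1-1, H1-4 and H1-5 changed by −0.06, −0.06 and 0.03. H2AX, the variant that is phosphorylated at DNA breaks, changed by 0.18 (SE 0.0716, adjusted p = 0.1144), and its 4 probe sets disagreed in sign, at 0.18, −0.07, 0.07 and −0.35. Its change passed when scrambled shRNA replicate 3 was left out, at 0.25 (adjusted p = 0.02744). H2AZ1, which encodes the H2A.Z found at promoters, changed by 0.07. H1-10 changed by −0.18 and MACROH2A1, whose product carries a large macro domain, by 0.12. H3-3A, which encodes the replication-independent H3.3, changed by −0.24 with the widest interval of the variants, −0.60 to 0.11. Without scrambled shRNA replicate 3 the change of H3-3A was −0.04 (limma adjusted p = 0.9006).

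**Figure D3:**
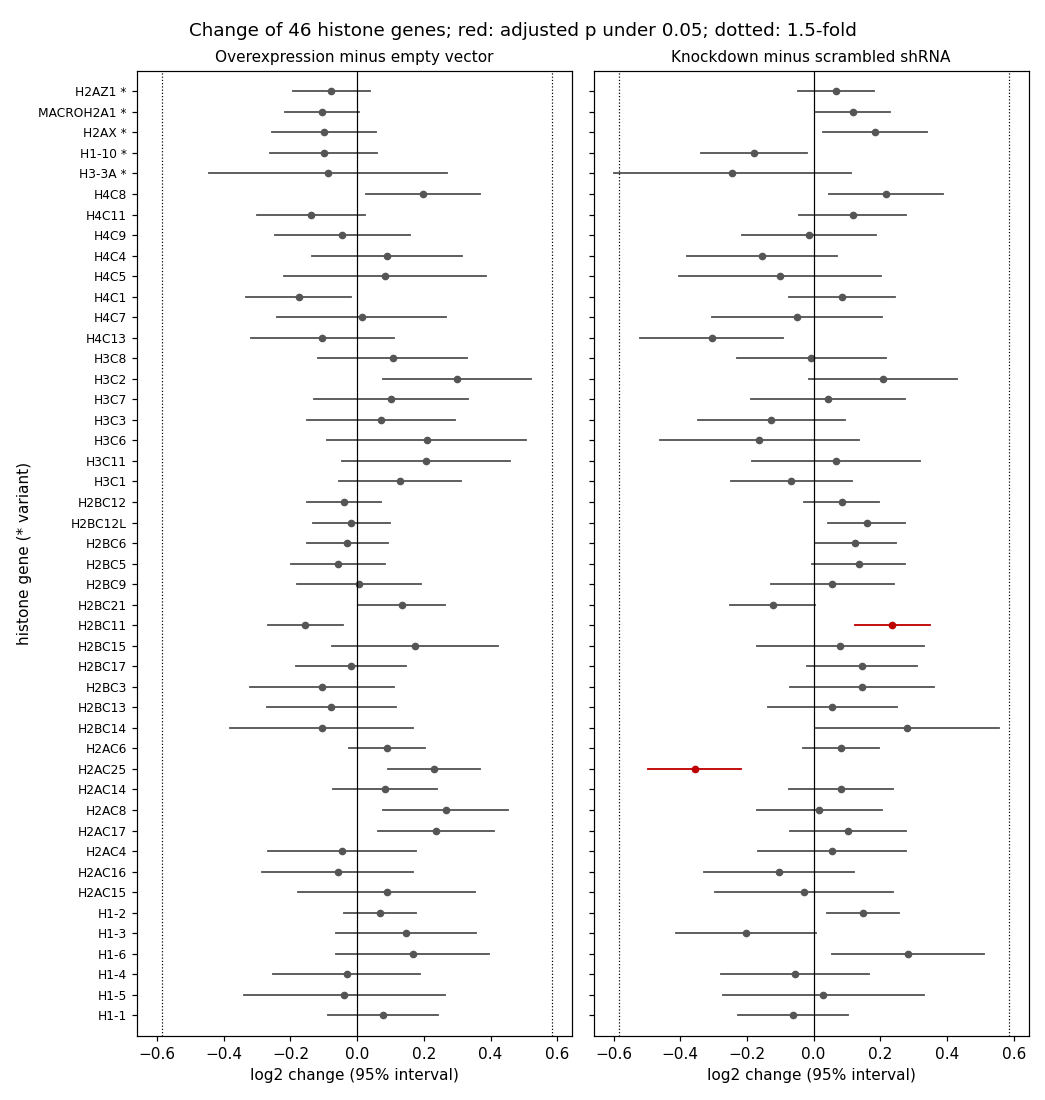
Log2 change of each of the 46 histone genes with its 95% interval, for overexpression minus empty vector (left) and knockdown minus scrambled shRNA (right); an asterisk marks variants, red marks an adjusted p under 0.05 and dotted lines mark 1.5-fold. The red points are H2AC25 and H2BC11 in the knockdown, and the 11 positive H2B changes stand together on the right.

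The control groups differed from each other in more genes than either perturbation changed. The scrambled shRNA and empty vector groups differed in 31.5% of all genes (16.2% higher and 15.3% lower with the scrambled shRNA) and in 8 of 46 histone genes (17.4%), 4 in each direction. Groups did not overlap for 39.1% of histone genes and 45.7% of all genes. The construct and its delivery, transient nucleofection against stable infection, cannot be told apart in this comparison. It shares the empty vector arrays with the overexpression comparison and the scrambled arrays with the knockdown comparison.

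H2AC25 had the largest change of any histone gene here, 0.62 higher with the scrambled shRNA (SE 0.0637, adjusted p = 3.9e-05, 1.53-fold), and was the sole member whose estimate passed 1.5-fold. H2BC21 read 9.31, 9.23 and 9.16 with the empty vector and 9.62, 9.63 and 9.54 with the scrambled shRNA, a rise of 0.36 (SE 0.0589, adjusted p = 0.0008375). MACROH2A1 fell from 12.32, 12.34 and 12.36 to 12.09, 12.10 and 12.00, a change of −0.28 (SE 0.0509, adjusted p = 0.001805), with no overlap between the groups. Its other 2 probe sets gave −0.38 and −0.67, in the same direction. These 3 genes were called under all alternatives run, each fit that left out 1 array and an adjusted p under 0.01 included.

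The remaining 5 calls between the controls were less stable. H2AC8 rose by 0.28 (adjusted p = 0.02789) and H3C3 by 0.29 (adjusted p = 0.04488), while H2BC15 fell by 0.33 (adjusted p = 0.04347), H3C2 by 0.33 (adjusted p = 0.02951) and H3C7 by 0.38 (adjusted p = 0.01821). Without scrambled shRNA replicate 3, none of these 5 passed. The changes were then 0.17 for H2AC8, 0.21 for H3C3, −0.31 for H2BC15, −0.30 for H3C2 and −0.25 for H3C7. In that fit 7 histone genes were called, where 26.6% of all genes passed. H2AC25 (0.58), H2BC21 (0.39) and MACROH2A1 (−0.25) were shared with the 8. The other 4 were lower with the scrambled shRNA, H1-4 at −0.31 (adjusted p = 0.03661), H2AC14 at −0.23 (adjusted p = 0.043), H2AX at −0.27 (adjusted p = 0.01144) and H2AZ1 at −0.17 (adjusted p = 0.02784). Without scrambled shRNA replicate 1 the count was 13 (30.0% of all genes), the 8 together with H1-3, H1-5, H2BC5, H3-3A and H3C1. It was 3 without empty vector replicate 2 (21.7%), and 5 when empty vector replicate 3 (27.1%) or scrambled array 2 (25.3%) was left out. With all arrays no H1 or H4 gene passed, with H1-3 at 0.27 (adjusted p = 0.05228) and H1-5 at −0.34 (adjusted p = 0.08169). Among the other variants, H2AX changed by −0.20 (adjusted p = 0.05017), H2AZ1 by −0.15 (adjusted p = 0.05381), H1-10 by 0.14 (adjusted p = 0.1555) and H3-3A by 0.41 (adjusted p = 0.07578), where scrambled replicate 3 was highest at 8.93.

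Set against the empty vector instead of the scrambled shRNA, the knockdown cells had 4 higher histone genes and none lower. This was 8.70% of the members where 4.54% of all genes passed, 3.02% higher and 1.52% lower, and delivery differs here too. H2BC5 rose by 0.30 (SE 0.0643, adjusted p = 0.0245), from 11.45, 11.35 and 11.29 to 11.66, 11.69 and 11.65. Its second probe set rose by 0.24 without passing (limma adjusted p over all probe sets = 0.06614). H2AC25 rose by 0.26 (adjusted p = 0.04149), H2BC21 by 0.24 (adjusted p = 0.04148) and H2BC11 by 0.22 (adjusted p = 0.0352). In all 4 genes every knockdown array lay above every empty vector array. Groups did not overlap for 45.7% of histone genes and 30.0% of all genes. The 12 H2B genes had a median of 0.15. All 4 calls were lost, leaving 0, when empty vector replicate 2 or 3 or any knockdown array was left out. The share of all genes called fell as well in those 5 fits, to between 1.03% and 2.81%. The count was 2 without overexpression replicate 2 (3.45% of all genes) or scrambled array 2 (3.76%) and 7 without scrambled array 3 (6.34%). Over the fits that left out 1 array the changes stayed between 0.27 and 0.35 for H2BC5, 0.23 and 0.30 for H2AC25, 0.21 and 0.28 for H2BC21, and 0.21 and 0.23 for H2BC11.

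H2AC25 therefore stood higher in the knockdown than in the empty vector arrays and lower than in the scrambled arrays. H2BC11 was the 1 histone gene that was called higher in the knockdown against both controls.

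**Figure D4:**
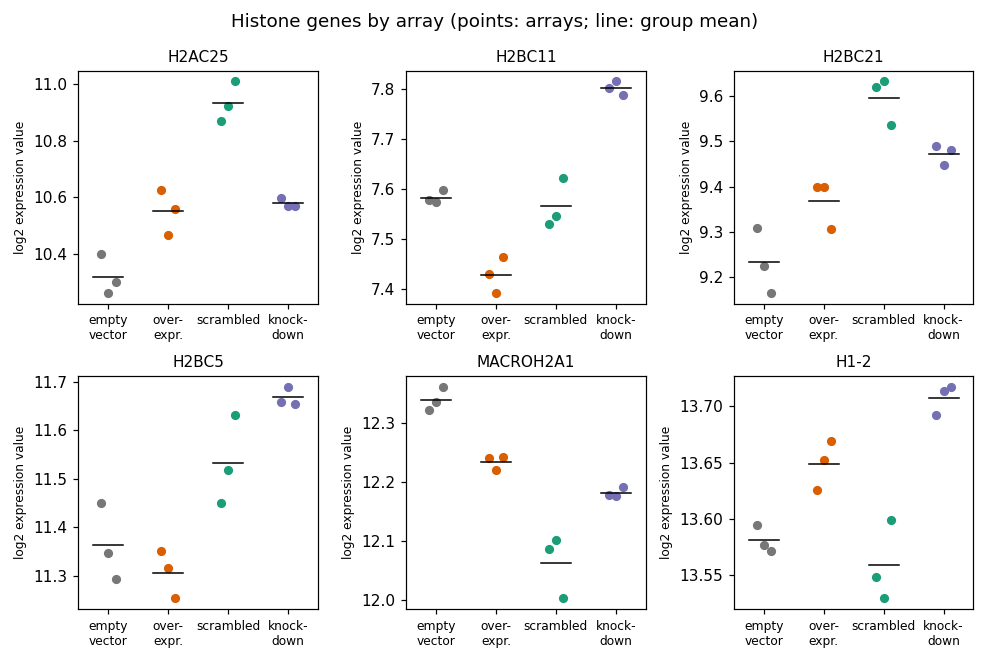
Log2 expression value of 6 histone genes on each of the 12 arrays, with the group mean as a line; each panel has its own axis, which does not start at 0. H2AC25 is highest in the scrambled arrays, H2BC11 and H2BC5 are highest in the knockdown arrays, and MACROH2A1 is lowest in the scrambled arrays.

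The effects of raising and lowering CXXC5 were compared as overexpression effect minus knockdown effect. Each effect was taken against its own control, so the gap between the control groups is part of this difference. Of 46 histone genes, 4 differed (2 in each direction), where 20.4% of all genes did, 8.15% with a positive and 12.3% with a negative difference. For H2AC25 the difference was 0.59 (SE 0.0901, adjusted p = 0.0007333) and for H2BC11 it was −0.39 (SE 0.0729, adjusted p = 0.002512). Both were called under all 21 alternatives to which this difference was fitted, other thresholds aside. For H2BC21 the difference was 0.26 (adjusted p = 0.04706) and for MACROH2A1 −0.22 (adjusted p = 0.04584). MACROH2A1 was lost without any 1 of the 12 arrays, at −0.19 to −0.24, and was kept in 4 of 21 alternatives. It was also lost after quantile normalization, median centring, averaging its probe sets, adjusting over each probe set on its own and with the replicate block. H2BC21 kept its call without empty vector replicate 1, overexpression replicate 3 or scrambled shRNA replicate 3 and lost it without any of the other 9, at 0.22 to 0.27. The count of 4 became 6 without scrambled shRNA replicate 3 (20.2% of all genes). It was 2 without empty vector replicate 2 (15.6%) or 3 (18.4%), or overexpression replicate 1 (19.6%) or 2 (16.7%). It was also 2 without scrambled shRNA replicate 2 (17.2%), or knockdown replicate 1 (17.0%) or 2 (18.0%). In a test for any difference over the 4 groups, 11 of 46 passed (10 clustered and MACROH2A1), against 33.2% of all genes.

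Clustered and variant genes were also set side by side on each array, as the median over genes of the deviation from the mean of the 12 arrays. For clustered genes this was −0.02, −0.04 and −0.01 with the empty vector and −0.03, 0.00 and 0.08 with CXXC5. It was −0.05, −0.03 and 0.03 with the scrambled shRNA and 0.04, 0.03 and 0.03 with the CXXC5 shRNA. The spread of these medians within groups was 0.036 (pooled SD). For the 5 variants the values were 0.04, 0.10 and 0.04 with the empty vector, 0.04, 0.00 and −0.10 with CXXC5, −0.09, −0.10 and 0.02 with the scrambled shRNA, and −0.03, 0.02 and 0.01 with the CXXC5 shRNA, with a pooled SD of 0.053. Overexpression and empty vector arrays overlapped for the clustered genes. For the variants, every overexpression array lay below every empty vector array by this measure, with the nearest pair both at 0.04. All scrambled shRNA and knockdown arrays lay below every empty vector array too.

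A further 28 probe sets were paired with several genes, histones among them, and name no single gene. Over these, 4.19% of all 22215 probe sets passed in the overexpression comparison, 9.83% in the knockdown comparison and 27.7% between the controls. One of them, paired with 14 H4 genes, was picked out after its values were seen. It read 7.54, 7.69 and 7.57 with the empty vector and 7.16, 7.26 and 7.19 with CXXC5, a fall of 0.39 (SE 0.074, adjusted p = 0.01124). With the scrambled shRNA it read 7.10, 6.88 and 7.04 and with the CXXC5 shRNA 7.49, 7.44 and 7.57, a rise of 0.50 (adjusted p = 0.001581). The scrambled group was 0.60 below the empty vector group (adjusted p = 0.0002117). Leaving out scrambled shRNA replicate 3 gave 0.51 (adjusted p = 0.004368) for the rise and −0.61 (adjusted p = 0.0007811) between the controls. The highest-reading probe set for the same 14 H4 genes went the other way in the knockdown, from 13.44, 13.46 and 13.54 to 13.18, 13.37 and 13.14 (−0.25, adjusted p = 0.04596), and changed by 0.12 with overexpression (adjusted p = 0.4546). Its knockdown call was lost when scrambled array 3 was left out, at −0.22 (adjusted p = 0.1141). The H4 readings thus depended on the probe set. Of 5 shared H2A probe sets, 3 rose in the knockdown against the scrambled shRNA, by 0.23 to 0.32. These 3 were called at 0.27 to 0.39 when scrambled array 3 was left out, where 8.31% of all probe sets passed. Against the empty vector their knockdown changes were 0.26, 0.10 and 0.15, and none passed (limma adjusted p over all probe sets = 0.0584, 0.367 and 0.2521). Of 8 paired with H3-3A and H3-3B, none passed in either perturbation. Their changes in the knockdown ran from −0.01 to 0.15, with a median of 0.05.

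Genes that serve histone supply were examined as listed groups. Of 28 measured genes of histone transcription and 3' end processing, 0 passed with overexpression. In the knockdown 3 rose and 1 fell (14.3% of the list against 14.0% of all genes). Between the controls 2 were higher and 9 lower with the scrambled shRNA (39.3% against 31.5%). When scrambled array 3 was left out the counts were 2 and 1 in the knockdown (10.7% against 12.3%) and 1 and 8 between the controls (32.1% against 26.6%). With all arrays, the knockdown set against the empty vector had 1 higher gene, PRKDC, and 2 lower, ZNF473 and SLBP (10.7% against 4.54%). None of these calls was kept in all 12 fits that left out 1 array. NCBP1, a subunit of the nuclear cap-binding complex, read 8.90, 8.91 and 8.71 in scrambled and 9.30, 9.28 and 9.30 in knockdown arrays, a rise of 0.45 (adjusted p = 0.001941), and 0.39 when scrambled array 3 was left out (adjusted p = 0.006218). Its second probe set, with a mean of 4.14, changed by 0.0045, and the mean of both gave 0.23. Set against the empty vector, the knockdown change of NCBP1 was −0.06, and −0.33 in the second probe set. SLBP, which binds the stem-loop of clustered histone mRNAs, rose by 0.24 in the knockdown (adjusted p = 0.02116) and was 0.48 lower in the scrambled than in the empty vector group (adjusted p = 0.0001814). Its knockdown call was lost when scrambled array 3, or knockdown arrays 2 or 3, were left out, at 0.19 to 0.24. Against the empty vector SLBP was called lower in the knockdown, at −0.28 to −0.19 when single arrays were left out. That call was kept in 1 of those 12 fits. CCNE2, a cyclin E that partners CDK2 on entry to S phase, fell by 0.45 (adjusted p = 0.003452), or by 0.39 without scrambled array 3 (adjusted p = 0.01293). Its second probe set changed by 0.23 in the other direction without passing (adjusted p = 0.4457). LSM1, an mRNA decay factor, rose by 0.22 (adjusted p = 0.02396), and lost its call when scrambled arrays 1 or 2, or knockdown arrays 1 or 3, were left out, at 0.18 to 0.21.

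Of 31 measured chaperone and deposition genes, 3 fell with overexpression and none rose (9.68% against 6.98% of all genes). In the knockdown 3 rose and 1 fell (12.9% against 14.0%), and the same counts held when scrambled array 3 was left out (12.3% of all genes). Between the controls 1 was higher and 4 lower with the scrambled shRNA (16.1% against 31.5%). The knockdown set against the empty vector gave 0 calls on this list (4.54% of all genes). ASF1A, a chaperone that hands H3–H4 dimers to the assembly complexes, read 10.15, 9.98 and 10.02 with the empty vector and 9.61, 9.49 and 9.57 with CXXC5. It fell by 0.50 (SE 0.0631, adjusted p = 0.0006662) and rose by 0.29 in the knockdown (adjusted p = 0.01025), and its second probe set gave −0.47 and 0.31. HIRA, a chaperone that deposits H3.3, rose by 0.53 in the knockdown (SE 0.0588, adjusted p = 0.0001397), from 11.27, 11.24 and 11.16 to 11.67, 11.82 and 11.77, and by 0.50 without scrambled array 3 (adjusted p = 0.0005773). It was 0.57 lower in the scrambled than in the empty vector group (adjusted p = 3.831e-05), where it read 11.81, 11.75 and 11.82, so the knockdown and empty vector values overlapped. Its fall of 0.22 with overexpression (adjusted p = 0.04375) was kept without scrambled shRNA replicate 3 or knockdown replicate 1 and lost without any of the other 10 arrays, at −0.20 to −0.24. SSRP1, a subunit of the FACT complex, fell by 0.24 with overexpression (adjusted p = 0.03356). That call was lost without empty vector replicate 1 or 2, overexpression replicate 2 or 3, or knockdown replicate 3, at −0.20 to −0.24. RUVBL1 (0.19 higher) and HJURP (0.30 lower) passed in the knockdown. When single arrays were left out, the RUVBL1 call was kept in 1 fit (overexpression replicate 3) and the HJURP call in 2 (overexpression replicate 1, scrambled replicate 3).

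**Figure D5:**
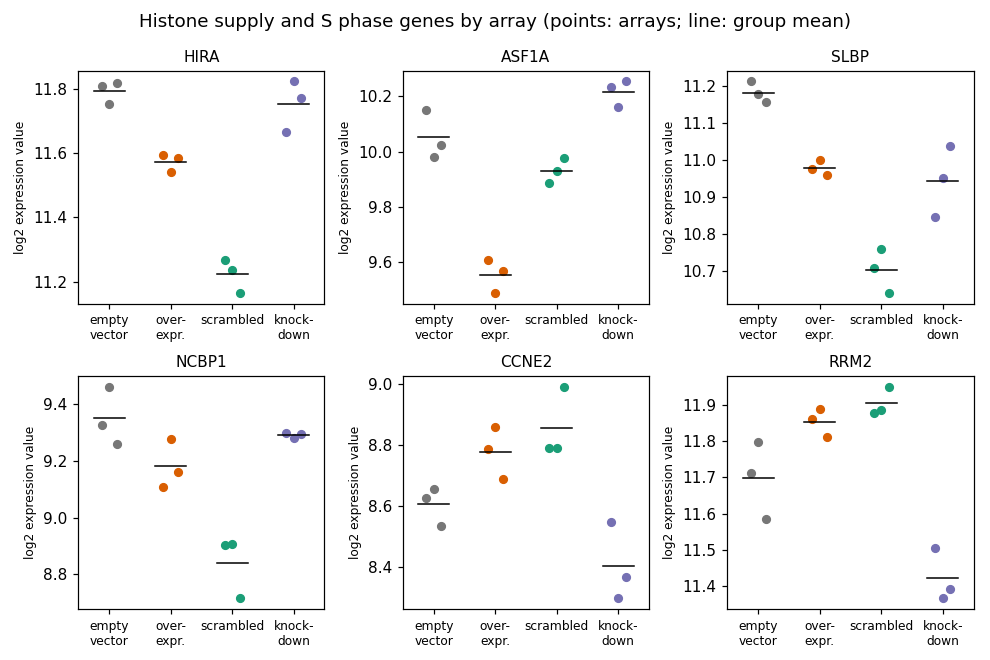
Log2 expression value of 6 genes of histone supply and S phase on each of the 12 arrays, with the group mean as a line; each panel has its own axis, which does not start at 0. ASF1A is lowest in the overexpression arrays, HIRA, SLBP and NCBP1 are lowest in the scrambled arrays, and CCNE2 and RRM2 are lowest on average in the knockdown arrays.

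Clustered histone mRNA follows DNA synthesis, so S phase genes were read from the same arrays. Of 29 measured, 0 passed with overexpression, and 1 rose and 2 fell in the knockdown (10.3% of the list against 14.0% of all genes). Between the controls 1 was higher and 3 lower with the scrambled shRNA (13.8% against 31.5%). Leaving out scrambled array 3 gave 0 higher and 3 lower genes in the knockdown and 0 and 4 between the controls. With all arrays, the knockdown set against the empty vector had 0 higher and 2 lower genes, RRM2 and SLBP (6.90% against 4.54%). RRM2, the small subunit of ribonucleotide reductase, read 11.88, 11.89 and 11.95 in scrambled and 11.51, 11.37 and 11.39 in knockdown arrays, a fall of 0.48 (adjusted p = 0.000622), or of 0.46 without scrambled array 3 (adjusted p = 0.002754), and its second probe set fell by 0.21. CDC45, a part of the replicative helicase, fell by 0.20 (adjusted p = 0.0228) and lost its call when scrambled array 2, or knockdown arrays 1 or 3, were left out, at −0.18 to −0.20. The gene that rose was SLBP, which is on both lists. The medians of the list were −0.05 with overexpression and 0.02 in the knockdown. Of 6 further histone genes outside the members, 1 passed in the knockdown (16.7% against 14.0% of all genes). H2AZ2, which encodes the second H2A.Z protein, rose by 0.24 (adjusted p = 0.01773). That call was lost without scrambled shRNA replicate 1 or knockdown replicate 2, at 0.19 and 0.22. Its other probe sets rose by 0.30 and 0.59. With overexpression its probe sets changed by −0.15, −0.44 and −0.40, where −0.44 passed (limma adjusted p over all probe sets = 0.003678). Between the controls they changed by −0.10, −0.43 and −0.74, and in the knockdown against the empty vector by 0.13, −0.13 and −0.16. In bulk RNA, a shift in the share of cells in S phase and a shift in histone mRNA per cell cannot be told apart.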

How the data were processed

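Expression was measured on 12 Affymetrix 3' arrays from 500 ng of RNA each. The authors used Affymetrix Expression Console, per the submitters' processing notes (version and summarisation: not given in the sources used here). Values as deposited are taken as log2 because they lay between 2.07 and 14.4, with array medians of 6.65 to 6.71; no header or label states the scale. Without scanner files, detection calls, background and scan batches were not analysed here. Precision is limited by having 3 arrays a group.

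Of 22277 probe sets, 62 controls were left out. The platform annotation gave 19064 probe sets 1 symbol, 1043 several and 2108 none; 19052 were matched by gene identifier to RefSeq (GRCh38.p14), with 0 symbols changed and 12 kept as given. The probe set with the highest mean stood for each gene, and 4 members had more than 1.

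The fit used limma 3.58.1 in R 4.3.3, with 1 coefficient per group over all 12 arrays (8 residual degrees of freedom), eBayes, two-sided tests and Benjamini-Hochberg adjustment over 11963 genes, or over 22215 probe sets where stated. Calls were made at an adjusted p under 0.05. Named genes were all variants and linkers, the called clustered genes, the 3 clustered genes with the highest and the 3 with the lowest means, and up to 4 called genes of each supply list. Further genes named for a value near the threshold or for their sign were picked after their values were seen. The members, lists and rules were chosen with earlier results of these data known. On simulated overexpression data of 11963 genes the fit recovered 42% of genes changed by 0.3 log2 and 84% of those changed by 0.6. In the simulated knockdown it recovered 22% and 78%. Each share rests on 50 genes drawn at random, with 11763 genes left unchanged. Both simulations used the same design and spread, so the gap between them was not read as a difference between the perturbations. In the data 6.98% and 14.0% of all genes were called, more than were changed in the simulations, so the shares may not carry over. Correlations of residuals between arrays of the same replicate number ran from 0.05 to 0.395 for number 1. They ran from −0.115 to 0.007 for number 2 and from 0.04 to 0.334 for number 3. The labels state no pairing, so the main fit did not pair samples by number. Figures were drawn with matplotlib 3.10.9.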

Additional observations from a re-analysis of the deposited data

Results flagged for a closer look

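The effect of overexpression differed from the effect of knockdown, by a limma test of the difference itself, for 4 histone genes. For H2AC25 the difference was 0.59 log2 (adjusted p = 0.0007333), with all 3 overexpression arrays above the empty vector arrays and all 3 knockdown arrays below the scrambled arrays. For H2BC11 it was −0.39 (adjusted p = 0.002512), with all 3 arrays of each group to the opposite sides. For H2BC21 it was 0.26 (adjusted p = 0.04706) and for MACROH2A1 it was −0.22 (adjusted p = 0.04584). The MACROH2A1 call was lost when any 1 of the 12 arrays was left out, at −0.19 to −0.24, and was kept in 4 of 21 alternatives; that of H2BC21 was lost without 9 of the 12 arrays. The scrambled and empty vector groups also differed for H2AC25, H2BC21 and MACROH2A1, by 0.62, 0.36 and −0.28. This gap enters the difference of the effects in full, because each effect was taken against its own control. Overexpression and knockdown means were 10.55 and 10.58 for H2AC25, 9.37 and 9.47 for H2BC21, and 12.23 and 12.18 for MACROH2A1. For H2BC11 they were 7.43 and 7.80, with scrambled and empty vector means of 7.57 and 7.58. These means were not tested against each other.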

How the results depend on the processing

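Histone genes called were 0, 2, 8 and 4 for overexpression, knockdown, scrambled against empty vector and knockdown against empty vector. They were 4 for the difference of the effects and 11 over the 4 groups. Not every move of these counts is listed below. For overexpression, quantile normalization, median centring and the mean of all probe sets each gave 1, H2AC25, with 8.24%, 7.56% and 6.60% of all genes called. A trended robust prior gave 2, 7, 7, 8 and 20 (overexpression, knockdown, knockdown against empty vector, difference and 4 groups), and array weights gave 4, 10, 15, 9, 8 and 20 in the first order; the shares of all genes were 9.47%, 17.7%, 7.34%, 23.7% and 38.8% with the prior and 13.0%, 18.5%, 36.0%, 13.2%, 26.5% and 45.0% with weights. Adjusted p under 0.10 gave 2, 7, 16, 8, 7 and 17 (all genes 10.8%, 20.1%, 40.6%, 9.65%, 27.4% and 43.7%), and under 0.01 it gave 3 between the controls, 0 for knockdown against empty vector, 2 for the difference and 7 over the groups (17.4%, 0.894%, 11.2% and 16.4%). Leaving out the 40% of genes with the lowest mean, which kept 29 members, gave 4, 5, 13 and 7 (15.3%, 28.8%, 45.6% and 9.74% of the genes kept). For the difference and the 4 groups this filter gave 5 and 13 (37.3% and 51.5%). Fits on the 6 arrays of both groups gave 1, 5 and 0 for knockdown, the controls and knockdown against empty vector (8.51%, 26.6% and 2.01%). Adjusting over each probe set on its own gave 1 for knockdown against empty vector and 2 for the difference (3.48% and 17.5%). Between the controls it gave 6 (29.4%), the mean of all probe sets gave 11 (32.0%) and the trended prior gave 12 (34.2%). Leaving out each array in turn gave 0 to 3, 2 to 6, 3 to 13, 0 to 7, 2 to 6 and 8 to 14. The shares of all genes then ran from 3.18% to 8.86%, 9.48% to 13.6% and 21.7% to 32.0% for the first 3. For the others they ran from 1.03% to 6.34%, 15.6% to 20.2% and 25.7% to 30.8%.

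The median change of clustered genes ran from 0.00533 to 0.0797 with overexpression and from −0.0203 to 0.0561 for the difference when each array was left out, and was 0.116 for knockdown against empty vector under the 40% filter. With the mean of all probe sets the variant median was −0.041 in the knockdown and −0.0729 for the difference, and CCNE2 between the controls turned from 0.25 to −0.21. The cause of these shifts was not tested. With the replicate number as a block, 0, 2, 11, 4 and 4 genes were called (7.33%, 15.8%, 34.3%, 5.41% and 22.0% of all genes). The labels do not say whether the numbers pair the samples. In simulated data with 3 arrays a group, changes of 0.3 log2 were recovered for 42% of 50 genes with overexpression and 22% of 50 in the knockdown. These were separate random draws with the same design and spread. Recovery by level was not tested.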
